A study of Canis lupus familiaris with 124 samples.

Results

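TCC1509 is a canine transitional cell carcinoma (TCC) cell line whose 3 libraries were compared with 5 libraries of the other TCC lines of the series, 2 of TCC0840 and 3 of TCC1506. These 8 libraries are part of 31 in the whole series, which covers 8 cell lines and 9 tumor tissues. TCC1509 was derived from a prostate tumor of a neutered male Bolonka Zwetna aged 9 years, and its libraries came from passages 77, 85 and 85. TCC0840 came from leftover cells of a fine needle aspirate of a neutered male Pitbull Terrier aged 10 years (passages 350 and 352). Its full name in the study gives the prostate as its origin. TCC1506 came from the urinary bladder of a female Labrador Retriever aged 10 years (passages 98, 106 and 107). All lines were kept in Medium 199 with 10% fetal calf serum. The prostate tumor P6.1 and the lymph node metastasis Ln6.2 of the dog that gave TCC1509 are shown alongside, with 1 library each. For reference, values are also given of bladder tumors B7, B8, B9 and B10, from dogs aged 10, 11, 8 and 8 years. Lines of prostate adenocarcinoma and its metastases, from dogs aged 6 or 11 years (passages 68 to 448), serve in the same way. The libraries of a line are cultures of the same line, so p-values measure the spread between cultures. A line cannot be told apart from its dog or its passage. The organ of origin differed between TCC1509 and TCC1506, where it cannot be told apart from the line, and not between TCC1509 and TCC0840.

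Epithelial cells of the urothelium and the prostate are held together by tight junctions, built from claudins and occludin, by adherens junctions and by desmosomes. They rest on a basement membrane that contains laminins, to which they attach through integrins. Carcinomas with little expression of claudins and other junction genes have been described in several organs as claudin-low, and often express genes that are typical of mesenchymal cells.

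The files list Ensembl identifiers without symbols, and a symbol could be paired with 1120 of 32183 identifiers, 1118 of them unambiguously. Of these symbols, 1097 come from genes that the study ranked on the drug response of its cell lines, so the named genes are not a random sample of the transcriptome. Of the claudins, CLDN7 alone could be paired, and CLDN1, CLDN3, CLDN4, CDH1, VIM, KRT8, KRT18 and PIK3R1 were not analysed here. The description of TCC1509 as poor in claudins was therefore looked at only on CLDN7 and its partners at the tight junction. The study's view of claudin expression in this line drew on the same data, so this is not an independent check.

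The TCC line libraries held between 15848441 and 19231681 expected counts, P6.1 held 18086891 and Ln6.2 15919861. Levels are given as CPM, which are counts scaled to a common library size, with TMM factors that correct for differences in library composition, and 1 count in a TCC line library is worth between 0.0517 and 0.0608 CPM. A gene entered the test with at least 10 counts in every library of at least 1 line, which left 13319 genes. It was called where edgeR's quasi-likelihood test gave, against TCC0840 and against TCC1506 alike, an adjusted p no higher than 0.01 and at least a 2-fold change in the same direction. Both contrasts use the same TCC1509 libraries and are not independent.

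TCC1509 stood apart from both other lines in 2060 of the 13319 genes (15.5%), of which 1128 (8.47%) were lower and 932 (7.0%) higher. The genes that fell did so by more than those that rose. The median log2 change of the lower genes, with genes at 0 set at a bound of 3 counts, was -4.07 against TCC0840 and -3.77 against TCC1506, and that of the higher genes was 2.51 and 2.18, beside -0.04 and -0.06 over all tested genes. In the same fit, 728 genes (5.47%) were lower and 820 (6.16%) higher in TCC0840 than in the other lines, and 554 (4.16%) were lower and 1033 (7.76%) higher in TCC1506. TCC1509 therefore had the most genes below both other lines, whereas TCC1506 had the most above them, a ranking that was not tested.

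**Figure D1:**
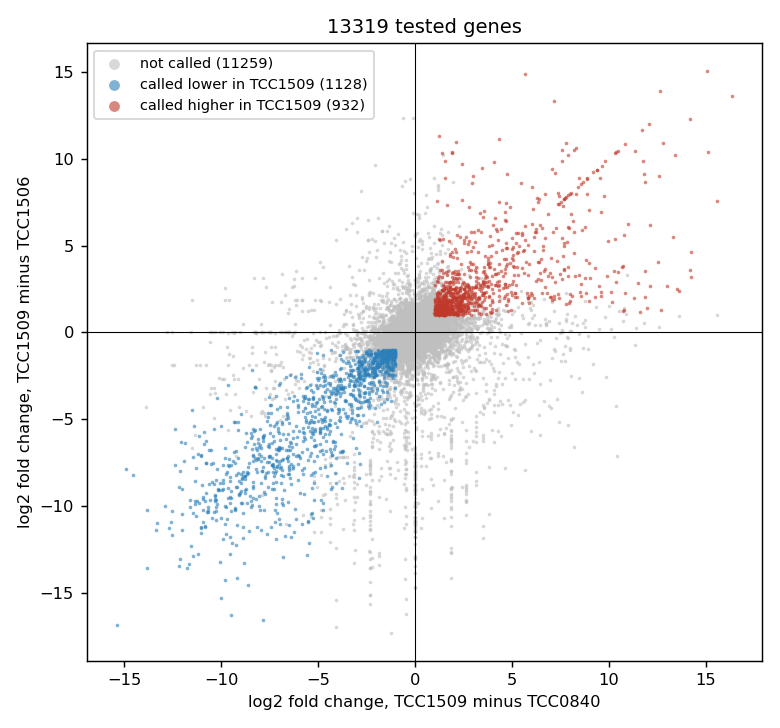
Fitted log2 fold change of TCC1509 against TCC0840 (horizontal axis) and against TCC1506 (vertical axis), 1 point per tested gene. The 1128 genes called lower (lower left) have a median of -4.30 and -3.98, the 932 called higher (upper right) have a median of 2.51 and 2.18, and fitted values of genes at 0 counts depend on the prior count of the test.

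Without a test, all 3 TCC1509 values lay below the 5 values of the other lines in 2620 genes (19.7%) and above them in 2440 (18.3%). Some of the lower genes were not detected at all in TCC1509. Of the 1128, 152 (13.5%) had no count in any TCC1509 library, and 335 (29.7%) had at most 3 counts over all 3 libraries. Of the 932 higher genes, 26 (2.79%) had no count in either other line, and 73 (7.83%) had at most 3 counts over the libraries of each. The higher genes had to be absent from both other lines and the lower genes from TCC1509 alone, so these shares are not alike. The same shares over all tested genes were not computed. Compared with all 19 other cell line libraries of the series, which include the prostate adenocarcinoma (PAC) lines, TCC1509 lay below every one in 596 of the lower genes (52.8%, against 6.30% of all tested genes). It lay above every one in 503 of the higher genes (54.0%, against 6.41%). These 19 include the 5 libraries against which the genes were called, so the difference from all tested genes was largely set by the calling.

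Replicates of TCC1509 were close to each other. The libraries of passage 85 differed at least 2-fold in 192 genes (1.44%), and the library of passage 77 differed from them in 588 (4.41%) and 351 (2.64%). Between libraries of TCC0840 this was the case in 644 genes (4.84%), and between those of TCC1506 in 529 to 1193 genes.

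The tight junction genes fell together. All 3 that could be paired with an identifier, of 31 on the list, were called lower in TCC1509, and 8.47% of all tested genes were. CLDN7 (ENSCAFG00000016124), a claudin of many simple and stratified epithelia, had 0.111, 0.0581 and 0.268 CPM in TCC1509, 113 and 133 CPM in TCC0840 and 69.5, 93 and 68.7 CPM in TCC1506. It was close to absent in each TCC1509 library and did not overlap with any library of the other lines. The log2 difference was -9.64 (SE 0.36, adjusted p = 8.61e-08) from TCC0840 and -8.99 (SE 0.35, adjusted p = 6.91e-08) from TCC1506. The 14 libraries of the PAC lines held between 156 and 388 CPM, when scaled over the whole series, so that TCC1509 was also below all of these.

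Occludin (OCLN), another membrane protein of the tight junction, was reduced and not lost, with 18.7, 17 and 19.7 CPM in TCC1509, 79.8 and 89 CPM in TCC0840 and 85.8, 93.8 and 82 CPM in TCC1506. The log2 difference was -2.20 (SE 0.16, adjusted p = 3.65e-06) from TCC0840 and -2.27 (SE 0.15, adjusted p = 1.51e-06) from TCC1506. F11R, which encodes the junctional adhesion molecule A, was reduced as well, with 34.4, 31.9 and 35.1 CPM in TCC1509, 133 and 152 CPM in TCC0840 and 81.7, 72.9 and 82.9 CPM in TCC1506. Its log2 difference was -2.09 (SE 0.16, adjusted p = 5.28e-06) from TCC0840 and -1.26 (SE 0.15, adjusted p = 6.82e-05) from TCC1506. OCLN and F11R thus remained well above 0 in TCC1509, unlike CLDN7.

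In the tissues of the same dog, CLDN7 was not uniformly low. P6.1 held 84.9 CPM, within the range of the other TCC lines, whereas Ln6.2 held 0.0759 CPM, within the range of TCC1509. OCLN was at 68.1 CPM in P6.1, between TCC1509 and the other lines, and at 1.59 CPM in Ln6.2, below every TCC1509 library. Of F11R, P6.1 held 219 CPM and Ln6.2 64.8 CPM. In bulk tissue, a smaller share of epithelial cells and less RNA per cell cannot be told apart.

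**Figure D2:**
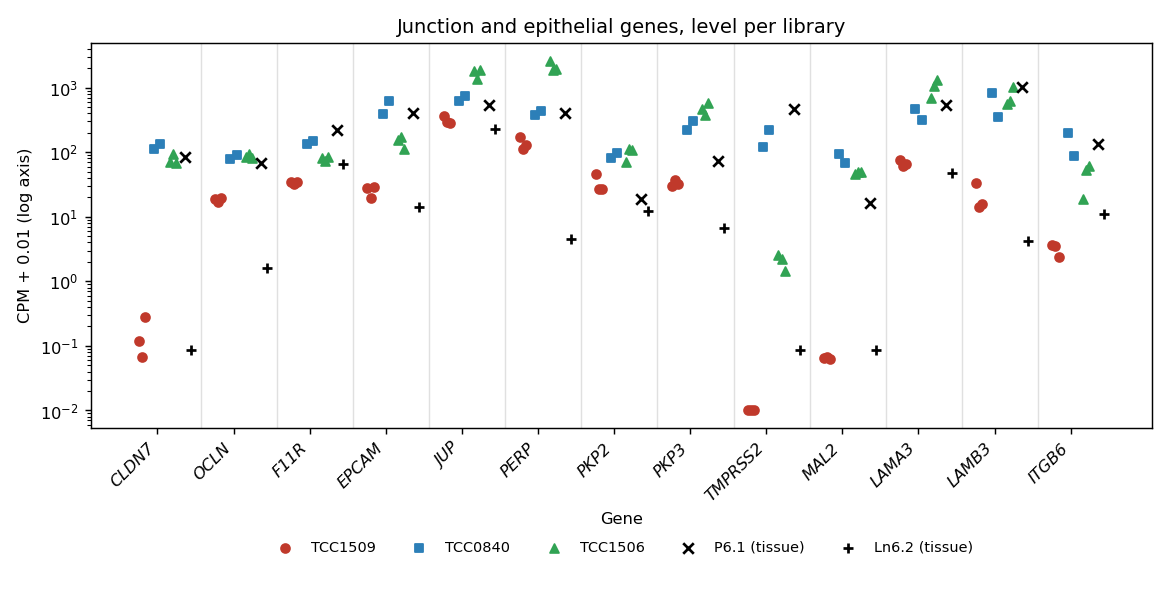
Level of 13 junction and epithelial genes in each library as CPM + 0.01 on a log axis, with 3 libraries of TCC1509, 2 of TCC0840, 3 of TCC1506 and 1 of each tissue. All TCC1509 points lie below all points of the other lines, P6.1 is above TCC1509 except in PKP2, and Ln6.2 is above all TCC1509 points in F11R and ITGB6 and, with 1 count each, in TMPRSS2 and MAL2.

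Of the genes for adherens junctions and desmosomes, 6 of 21 could be paired and tested, and 5 of these were lower in TCC1509 than in both lines (EPCAM, JUP, PERP, PKP2 and PKP3), where 8.47% of all tested genes and 11.1% of those with a symbol were lower. EPCAM (ENSCAFG00000002653), an adhesion molecule of epithelial cells, had 27.7, 19.7 and 29.2 CPM in TCC1509, 393 and 614 CPM in TCC0840 and 153, 169 and 112 CPM in TCC1506. The log2 difference was -4.31 (SE 0.28, adjusted p = 1.44e-06) from TCC0840 and -2.53 (SE 0.25, adjusted p = 1.86e-05) from TCC1506. The desmosomal plaque protein plakophilin 3 (PKP3) had 29.8, 36.7 and 31.6 CPM in TCC1509, 219 and 307 CPM in TCC0840 and 463, 384 and 589 CPM in TCC1506, a log2 difference of -3.02 (SE 0.24, adjusted p = 6.25e-06) from TCC0840 and -3.90 (SE 0.24, adjusted p = 8.60e-07) from TCC1506.

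The other 3 called genes were still expressed in TCC1509. Plakoglobin (JUP), which links cadherins to the cytoskeleton, was at 367, 293 and 282 CPM in TCC1509, compared with 623 and 750.4 CPM in TCC0840 and 1844, 1350.3 and 1909.6 CPM in TCC1506. PERP, a membrane protein of desmosomes, was at 169.8, 111 and 129 CPM in TCC1509, 375 and 435 CPM in TCC0840 and 2601, 1891 and 1956 CPM in TCC1506. Plakophilin 2 (PKP2) was at 45.3, 27 and 26.8 CPM in TCC1509, 80.6 and 97.6 CPM in TCC0840 and 70.9, 111 and 109 CPM in TCC1506. None of the 3 genes overlapped between TCC1509 and the other lines. All 3 lost their call when the series of sample numbers in the labels was added to the model. That series joins all TCC1509 libraries with replicate 3 of TCC1506, the last value given for that line, which was above TCC1509 for each gene. The call of JUP was also lost without replicate 3 of TCC1509, and that of JUP and PKP2 without replicate 2 of TCC0840.

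CDH3, which encodes P-cadherin, was not called, because the other lines lay on either side. It was at 142, 88.1 and 109 CPM in TCC1509, above 39.8 and 29.1 CPM in TCC0840 and below 300.5, 414 and 471 CPM in TCC1506. In Ln6.2, PERP (4.48 CPM), PKP2 (12.1 CPM), PKP3 (6.75 CPM), EPCAM (14.1 CPM), JUP (225 CPM) and CDH3 (18 CPM) were all below every TCC1509 library. In P6.1, EPCAM (412 CPM), PERP (399 CPM), JUP (541 CPM), PKP3 (72 CPM) and CDH3 (296 CPM) were above every TCC1509 library, and PKP2 (19 CPM) was not.

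Most of the paired genes that maintain or mark the epithelial state were lower as well. Of 37 on the list, 9 could be paired and tested, and 7 were lower in TCC1509 than in both lines (8.47% of all tested genes and 11.1% of those with a symbol were), while TP63 and ITGA6 were not called. The list had a median log2 change over the 9 genes of -4.81 against TCC0840 and -5.16 against TCC1506. TMPRSS2 (ENSCAFG00000010190), a membrane serine protease of the luminal epithelium, had no count in TCC1509, 119.7 and 218 CPM in TCC0840 and 2.52, 2.24 and 1.43 CPM in TCC1506. With no count in TCC1509, it was at least 3109.6-fold lower than in TCC0840 and at least 36.9-fold lower than in TCC1506, set against 3 counts over the group. The other lines also differed from each other by far in this gene, since TCC1506 was close to 0 too.

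MAL2, which takes part in transport to the apical membrane, had 0.0553, 0.0581 and 0.0536 CPM in TCC1509, 93 and 67.6 CPM in TCC0840 and 46.3, 48.6 and 49.5 CPM in TCC1506. This was 1 count in each TCC1509 library, so TCC1509 was 1425-fold (95% exact interval 487 to 6913) lower than TCC0840 and 866-fold (95% exact interval 296 to 4200.5) lower than TCC1506. MAL2 was expressed in every library of the other lines. OVOL2, a zinc finger repressor that keeps cells epithelial, was also lower and fell from 22.5 and 41.5 CPM in TCC0840 and 18.5, 15.6 and 17.5 CPM in TCC1506 to 2.16, 3.25 and 4.29 CPM.

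Basement membrane genes of the list were among them. LAMA3 and LAMB3 encode chains of laminin 332, the laminin beneath stratified epithelia. LAMA3 had 74.6, 60.7 and 65.1 CPM in TCC1509, 469.7 and 317 CPM in TCC0840 and 703, 1047 and 1329 CPM in TCC1506, with a log2 difference of -2.57 (SE 0.28, adjusted p = 5.00e-05) from TCC0840 and -3.98 (SE 0.28, adjusted p = 2.09e-06) from TCC1506. LAMB3 had 33, 14.4 and 15.5 CPM in TCC1509, 814 and 356 CPM in TCC0840 and 550.3, 620.0 and 1014 CPM in TCC1506, a log2 difference of -4.81 (SE 0.48, adjusted p = 2.61e-05) from TCC0840 and -5.16 (SE 0.47, adjusted p = 1.13e-05) from TCC1506. ITGB6, the beta chain of an integrin of epithelial cells, was lower too, at 3.6, 3.54 and 2.41 CPM in TCC1509, 200.2 and 86.6 CPM in TCC0840 and 18.6, 52.2 and 60.7 CPM in TCC1506.

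TP63, the transcription factor of basal epithelial cells, separated TCC1506 from both other lines and not TCC1509. It had no count in TCC1509, 0.122 and 0.103 CPM in TCC0840 and 472, 152 and 298 CPM in TCC1506. The difference from TCC0840, which held 4 counts in all, did not pass the test (adjusted p = 0.167). ITGA6, a laminin receptor chain, was not called either, at 468, 778 and 590.0 CPM in TCC1509, 706 and 489.9 CPM in TCC0840 and 305, 379 and 432 CPM in TCC1506. In the tissues, P6.1 held 474 CPM of TMPRSS2, 1021 CPM of LAMB3 and 43.9 CPM of TP63, and Ln6.2 held 0.0759, 4.25 and 0.531 CPM.

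Keratins and genes of urothelial differentiation gave no call, and few could be paired. KRT80, the 1 keratin of 17 on the list, was at 154, 171 and 167 CPM in TCC1509, 411 and 273 CPM in TCC0840 and 107, 228 and 151 CPM in TCC1506, and overlapped with TCC1506. Of 20 urothelial genes, TGM1 and PSCA could be paired, and each was low in TCC1509 and in 1 other line. PSCA, prostate stem cell antigen, was at 0.277, 0.232 and 0.59 CPM in TCC1509, 25.8 and 52.6 CPM in TCC0840 and 0.168, 0.0591 and 0 CPM in TCC1506. TGM1, the transglutaminase of cornified cells, was at 1.05, 1.1 and 0.804 CPM in TCC1509, 0.608 and 1.81 CPM in TCC0840 and 8.22, 7.62 and 23 CPM in TCC1506.

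Integrin chains changed in both directions. Of 13 integrins with a symbol, 10 were tested, 4 were higher in TCC1509 than in both lines (ITGA5, ITGAV, ITGB1 and ITGB5), ITGB6 was lower, and 5 were not called. Of all tested genes 7.0% were higher and 8.47% lower, and of those with a symbol 8.63% and 11.1%. ITGA5 (ENSCAFG00000006491), the alpha chain of the main fibronectin receptor, had 1302, 939 and 1054 CPM in TCC1509, 1.64 and 3.21 CPM in TCC0840 and 34.7, 72.2 and 68.9 CPM in TCC1506. The log2 difference was 8.80 (SE 0.52, adjusted p = 7.89e-07) from TCC0840 and 4.2 (SE 0.34, adjusted p = 5.20e-06) from TCC1506. ITGB1, the chain with which it pairs, had 2834, 2330.3 and 2282 CPM in TCC1509, 686 and 473 CPM in TCC0840 and 513, 698 and 699 CPM in TCC1506, a log2 difference of 2.09 (SE 0.25, adjusted p = 9.08e-05) from TCC0840 and 1.93 (SE 0.21, adjusted p = 4.18e-05) from TCC1506.

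The chains of vitronectin receptors followed. ITGAV was at 1867, 1259.9 and 1512 CPM in TCC1509, 694 and 650.2 CPM in TCC0840 and 190.4, 135 and 192 CPM in TCC1506. ITGB5 was at 561, 347 and 451 CPM in TCC1509, 78.1 and 102 CPM in TCC0840 and 139.6, 87.1 and 108 CPM in TCC1506. For all 4 chains the groups did not overlap, and both tissues of the dog were above the other lines, with 443 and 977 CPM of ITGA5 and 1914 and 1809 CPM of ITGB5 in P6.1 and Ln6.2. The collagen receptor chain ITGA2 and the laminin receptor chain ITGA3 were not called. The family was defined by its symbols. With the series of sample numbers in the model, ITGA5 kept its call, and the calls of ITGAV, ITGB1 and ITGB5 were not followed.

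Other mesenchymal genes did not move as a group. Of 32 on the list, 10 could be paired and 8 tested, and ITGA5 and SPARC were higher in TCC1509 than in both lines, with a median log2 change over the 8 genes of 2.26 against TCC0840 and 0.08 against TCC1506. SPARC, a matrix-associated glycoprotein, had 31.5, 35.8 and 37.6 CPM in TCC1509, 0.0608 and 0.155 CPM in TCC0840 and 1.45, 0.945 and 1.91 CPM in TCC1506. The log2 difference was 8.20 (SE 0.48, adjusted p = 7.89e-07) from TCC0840 and 4.56 (SE 0.30, adjusted p = 1.20e-06) from TCC1506. SNAI2, a repressor of epithelial genes, was at 122, 102 and 122 CPM in TCC1509, well above 13 and 9.78 CPM in TCC0840 but level with 102, 107 and 138 CPM in TCC1506. MMP2 and POSTN were at or below 0.214 CPM in every TCC1509 library and were not tested.

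Genes known from fibroblasts were split. DCN (ENSCAFG00000006142), which encodes the matrix proteoglycan decorin, had 508, 234 and 459.6 CPM in TCC1509, 0 and 0.103 CPM in TCC0840 and 0, 0 and 0.0531 CPM in TCC1506. These were 2 counts in TCC0840 and 1 count in TCC1506, so TCC1509 was 7216-fold (95% exact interval 1997 to 59589.9) higher than TCC0840 and 21651-fold (95% exact interval 3885 to 855190.3) higher than TCC1506. COL3A1, the collagen of type III, had 179, 682 and 805 CPM in TCC1509, 0.304 and 0.828 CPM in TCC0840 and 38.6, 42.1 and 88.7 CPM in TCC1506. It was thus lower at passage 77 than at passage 85, and its log2 difference was 9.88 (SE 0.96, adjusted p = 2.21e-05) from TCC0840 and 3.26 (SE 0.56, adjusted p = 0.00072) from TCC1506.

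The other fibroblast markers were near 0 in TCC1509. COL1A1 was at 0.221, 0.29 and 0.214 CPM, COL1A2 at 0.111, 0.0581 and 0.161 CPM and COL6A1 and COL6A2 at no more than 0.107 CPM. In Ln6.2, by contrast, COL1A1 reached 20136 CPM and COL1A2 14954 CPM. The summed level of the 6 markers with an identifier ranged from 687 to 1265 CPM in TCC1509, 0.548 to 1.55 CPM in TCC0840 and 48.7 to 157 CPM in TCC1506, and nearly all of it in TCC1509 came from DCN and COL3A1. The calls of DCN and COL3A1 were lost with the series of sample numbers in the model, and replicate 3 of TCC1506, of the same series as TCC1509, held 0.0531 CPM of DCN and 88.7 CPM of COL3A1.

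Further collagens and laminins gave no common direction. Of 15 collagens with a symbol, 7 were tested, COL3A1 was higher and COL5A2 lower, at 1.83, 1.34 and 1.34 CPM in TCC1509 compared with 20.9 and 40.8 CPM in TCC0840 and 6.71, 11.4 and 28.4 CPM in TCC1506. LAMB1, a laminin chain of many tissues, was above both other lines in every library (1274, 910.4 and 1009 CPM, compared with 239 and 288 CPM in TCC0840 and 427, 545 and 707 CPM in TCC1506), but its log2 change of 0.89 (SE 0.22) against TCC1506 stayed below 2-fold. It went opposite to LAMA3 and LAMB3.

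Markers of other cell types were low in TCC1509. The 5 leukocyte markers with an identifier summed to 0.751 to 1.34 CPM, with 2 at 0 in all libraries, and the 3 endothelial markers to 1.93 to 2.60 CPM, compared with 169 and 224 CPM in P6.1 and 293 and 482 CPM in Ln6.2. In the other lines the leukocyte markers summed to 6.27 to 24.2 CPM in TCC0840, most of it ITGB2, and 0.106 to 0.168 CPM in TCC1506, and the endothelial markers to at most 1.90 CPM. ACTA2, the smooth muscle actin, was at 0.0553, 0.0581 and 0 CPM in TCC1509, compared with 124 CPM in P6.1 and 514 CPM in Ln6.2. RAC2, a GTPase of blood cells, was called higher in TCC1509 at 1.11, 1.34 and 0.697 CPM, but this rests on 56 counts, and the call was lost without replicate 1 of TCC0840 and with the series of sample numbers in the model.

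**Figure D3:**
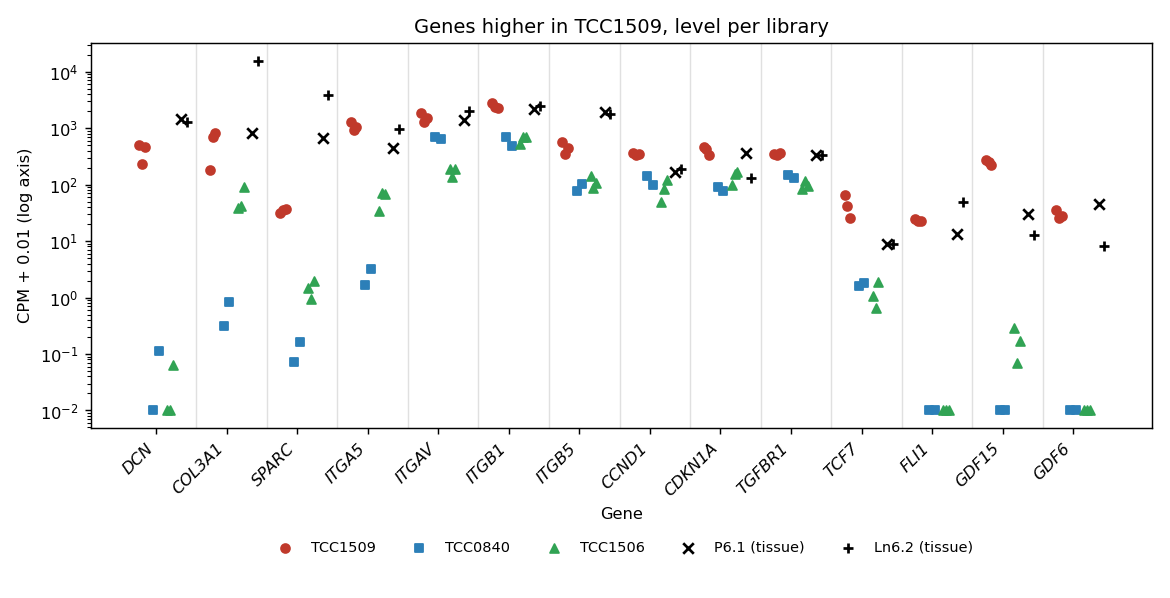
Level of 14 genes called higher in TCC1509 in each library as CPM + 0.01 on a log axis, with 3 libraries of TCC1509, 2 of TCC0840, 3 of TCC1506 and 1 of each tissue. All TCC1509 points lie above all points of the other lines, and in DCN, FLI1 and GDF6 the other lines are at or near 0 while both tissues are not.

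Of the signalling genes, few separated TCC1509 from both lines. CCND1, cyclin D1, was at 368, 336 and 343 CPM in TCC1509, 144 and 98.9 CPM in TCC0840 and 48.1, 81.7 and 122 CPM in TCC1506. CDKN1A, the cell cycle inhibitor p21, was at 471, 429 and 333 CPM, compared with 89.8 and 77.8 CPM in TCC0840 and 96.8, 151 and 169.6 CPM in TCC1506. Both were called higher, and the other 5 of 7 tested cell cycle genes (AURKA, CCNA2, CCNB1, PLK1 and RB1) were not called. The call of CCND1 was lost without either TCC0840 library or any TCC1509 library, and those of CCND1, CDKN1A, TGFBR1 and TCF7 with the series of sample numbers in the model.

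EGFR, the epidermal growth factor receptor, was the 1 of 6 tested genes of receptor kinases and PI3K signaling to be called. It had 36.7, 37.7 and 39.8 CPM in TCC1509, 167 and 166 CPM in TCC0840 and 241, 106 and 208 CPM in TCC1506, a log2 difference of -2.14 (SE 0.30, adjusted p = 0.000224) from TCC0840 and -2.31 (SE 0.28, adjusted p = 7.21e-05) from TCC1506. The PAC line libraries, scaled over the whole series, held 23.1 to 81.5 CPM of EGFR, so TCC1509 was not below all of these. The same held for JUP (248 to 842 CPM) and FOLH1 (0 to 294 CPM). Of 5 tested genes of Wnt and TGF-beta signaling, TGFBR1, a receptor of TGF-beta, and TCF7, a transcription factor of the Wnt pathway, were higher. TGFBR1 was at 350.1, 334 and 362 CPM in TCC1509, 150.3 and 128 CPM in TCC0840 and 84.6, 117 and 94.4 CPM in TCC1506. TCF7 was at 66.1, 41.5 and 25.2 CPM, compared with 1.58 and 1.81 CPM in TCC0840 and 1.06, 0.65 and 1.86 CPM in TCC1506. HOXB13, HOXB7 and the other 4 tested regulators of the prostate and urinary tract were not called. No neuroendocrine marker could be paired.

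Among all genes with a symbol, 105 of 950 (11.1%) were lower and 82 (8.63%) higher, which includes the genes above. Those that fell most against the line nearest to TCC1509 included PPIC, RAB20, STARD4, PRKAA2, FOLH1, TNK1, ARFGEF3, TMEM144, PRDX4, CLDN7 and MAL2, an order that is not measured among genes at 0 counts. The first 4 had no count in any TCC1509 library. PPIC, which encodes cyclophilin C, was at 42 and 50.2 CPM in TCC0840 and 16.3, 18 and 17.4 CPM in TCC1506, at least 835-fold and 309-fold more than in TCC1509. RAB20, a small GTPase, was at 19.9 and 16.1 CPM and 4.02, 6.91 and 8.87 CPM, at least 321-fold and 119-fold more. STARD4, a sterol transfer protein, was at 23.2 and 16.3 CPM and 5.7, 11 and 11.2 CPM, at least 350.4-fold and 167-fold more. PRKAA2, a catalytic subunit of the energy sensor AMPK, was low in the other lines too, at 5.05 and 6.26 CPM and 7.99, 4.37 and 3.29 CPM, at least 103-fold and 93.5-fold more.

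FOLH1, which encodes the prostate-specific membrane antigen, was at 32.9 and 67.5 CPM in TCC0840 and 65.7, 39.2 and 40.4 CPM in TCC1506 and had 1 count in TCC1509. It was 2783-fold (95% exact interval 499 to 109973) lower than in TCC0840 and 2614-fold (95% exact interval 469 to 103291) lower than in TCC1506. PRDX4, a peroxiredoxin of the endoplasmic reticulum, was at 0.0553, 0.116 and 0.107 CPM in TCC1509, 54.9 and 58.8 CPM in TCC0840 and 50.0, 49.2 and 44.5 CPM in TCC1506, a log2 difference of -9.16 (SE 0.28, adjusted p = 2.73e-08) from TCC0840 and -8.94 (SE 0.27, adjusted p = 2.72e-08) from TCC1506. The kinase TNK1, ARFGEF3 and TMEM144 had 3, 3 and 1 counts in TCC1509 and lay between 20.8 and 57.6 CPM in every library of the other lines.

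Some genes that were absent or nearly absent in TCC1509 were detected in its tissues of origin. PPIC was at 56.7 CPM in P6.1 and 117 CPM in Ln6.2, above all TCC lines, and RAB20 was at 12.1 and 16.8 CPM. PRDX4 was at 12.5 CPM in P6.1 and 57.4 CPM in Ln6.2. The level was lower than in all 5 libraries of the other lines, though not always near 0, for FOLH1 (18.4 and 14.4 CPM), MAL2 (16.1 and 0.0759 CPM), PRKAA2 (2.99 and 0.0759 CPM), TMEM144 (2.99 and 1.82 CPM) and TNK1 (21 and 5.24 CPM) in P6.1 and Ln6.2.

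By the fitted change against the nearer line, the 12 genes that rose most were DCN, FLI1, GDF6, GDF15, GUCY1A1, CDA, MME, FANK1, P2RX1, IL2RG, EDNRB and PRSS56. The fitted change depends on the prior count for genes at 0 in the other lines, so the order is not measured, and IL2RG, at least 13.9-fold higher than in TCC0840 by its bound, is not shown to exceed genes that were not listed, such as TCF7, SPARC and ITGA5. GDF15, a stress-induced cytokine of the TGF-beta family, had 273, 248 and 219 CPM in TCC1509, no count in TCC0840 and 0.279, 0.0591 and 0.159 CPM in TCC1506. It was at least 2935-fold higher than in TCC0840 and, with 9 counts in TCC1506, differed from this line by 10.43 (SE 0.34, adjusted p = 7.02e-08) on the log2 scale. FLI1, an ETS transcription factor of endothelial and blood cells, was at 24.7, 22.4 and 22.5 CPM in TCC1509 and had no count in either other line, at least 277-fold and 415-fold more. GDF6, a ligand of the BMP family, was at 36, 25.3 and 28.1 CPM with no count in the other lines, at least 356-fold and 534-fold more.

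GUCY1A1, a subunit of the nitric oxide receptor guanylate cyclase, was at 32.6, 74.5 and 44.4 CPM in TCC1509 and had 1 count over the other 5 libraries. CDA, cytidine deaminase, was at 8.46, 11.6 and 7.18 CPM, and MME, the peptidase neprilysin, at 5.75, 2.61 and 5.68 CPM, both with no count in the other lines. P2RX1, an ATP-gated ion channel, was at 59.7, 85.4 and 73.1 CPM, compared with 0.243 and 0.724 CPM in TCC0840 and no count in TCC1506. IL2RG, the gamma chain shared by several interleukin receptors, was called on 63 counts and lost its call without either TCC0840 library. The endothelin receptor EDNRB was at 7.63, 3.19 and 5.09 CPM, while FANK1 (41.2, 42.2 and 46.9 CPM) and the serine protease PRSS56 (35.6, 35.2 and 23 CPM) did not exceed 0.709 CPM in any library of the other lines.

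With the series of sample numbers as a term in the model, CDA, DCN, EDNRB, FLI1, GDF6, GUCY1A1, IL2RG, MME and P2RX1 lost their call, and FANK1, GDF15 and PRSS56 did not. In replicate 3 of TCC1506, of the same series as TCC1509, all 9 were at or below 0.0531 CPM. All genes listed above as rising most were also higher in both tissues than in all 5 libraries of the other lines. Tissue levels are given for the 5 with the largest fitted change, DCN, FLI1, GDF6, GDF15 and GUCY1A1. This order is not measured, as said above. DCN was at 1423 CPM in P6.1 and 1260.3 CPM in Ln6.2. FLI1 was at 13.3 and 49.5 CPM, GDF6 at 45.5 and 8.2 CPM, GDF15 at 30.3 and 12.9 CPM, and GUCY1A1 at 38.3 and 25.3 CPM. Bladder TCC tissues of other dogs, scaled over the whole series, held 2.55 to 26.7 CPM of FLI1 and 3.79 to 83.4 CPM of DCN. They held 0.248 to 15.9 CPM of GDF15, 0.435 to 5.79 CPM of GUCY1A1 and 0 CPM of GDF6. Apart from GDF6, these genes were thus also expressed in bladder TCC tissues of other dogs. Prostate and lymph node tissues of other dogs were not looked at, so GDF6 is not shown to be limited to the dog that gave TCC1509.

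Over all called genes, both tissues of the dog resembled TCC1509 more often among the genes that were higher than among those that were lower. Of the 932 higher genes, 748 (80.3%) were higher in P6.1 than in all 5 libraries of the other TCC lines, 751 (80.6%) in Ln6.2 and 691 (74.1%) in both. Over all tested genes, these shares were 29.6%, 30.9% and 23.0%. Of the 1128 lower genes, 461 (40.9%) were lower in P6.1, 680 (60.3%) in Ln6.2 and 380 (33.7%) in both, compared with 27.3%, 30.4% and 21.8% of all tested genes. A further 300 of the lower genes (26.6%, against 8.60% of all) were lower in Ln6.2 and not in P6.1. The calls and these shares rest on the same 5 libraries of the other lines, so the difference from all tested genes was partly set by the calling. The tissues contain other cells, as the levels of fibroblast, leukocyte and endothelial markers given above show, and the part of these cells in the shares was not tested.

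The tissues of other dogs were counted in the same way, with all libraries scaled over the whole series. The 932 higher genes lay above the other TCC lines in 80.2% in P6.1 and 80.4% in Ln6.2, but in 52.0% in B7, 45.5% in B8, 50.0% in B9 and 51.8% in B10, which are bladder TCC. For the 1128 lower genes, the share was 40.6% in P6.1, 60.4% in Ln6.2, 39.5% in B7, 26.1% in B8, 26.7% in B9 and 29.8% in B10. B7 is the tumor from which TCC1506 was derived, and the share of all tested genes was between 21.5% and 31% in every tissue and direction. The higher genes of TCC1509 were thus more often high in the tumor and the metastasis of its own dog than in the tissues of 4 other dogs, and the lower genes were so in Ln6.2. These differences rest on 1 library per tissue and were not tested. The tissues of the 4 other dogs were all bladder tumors, whereas P6.1 came from the prostate and Ln6.2 from a lymph node. Among the tissues counted, the dog therefore cannot be told apart from the organ. The series also holds a prostate tumor (P2) and lymph node metastases (Ln4.2 and Ln4.3) of other dogs. These are of prostate adenocarcinoma and were not counted. The part of fibroblasts and other cells in these shares was not tested.

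**Figure D4:**
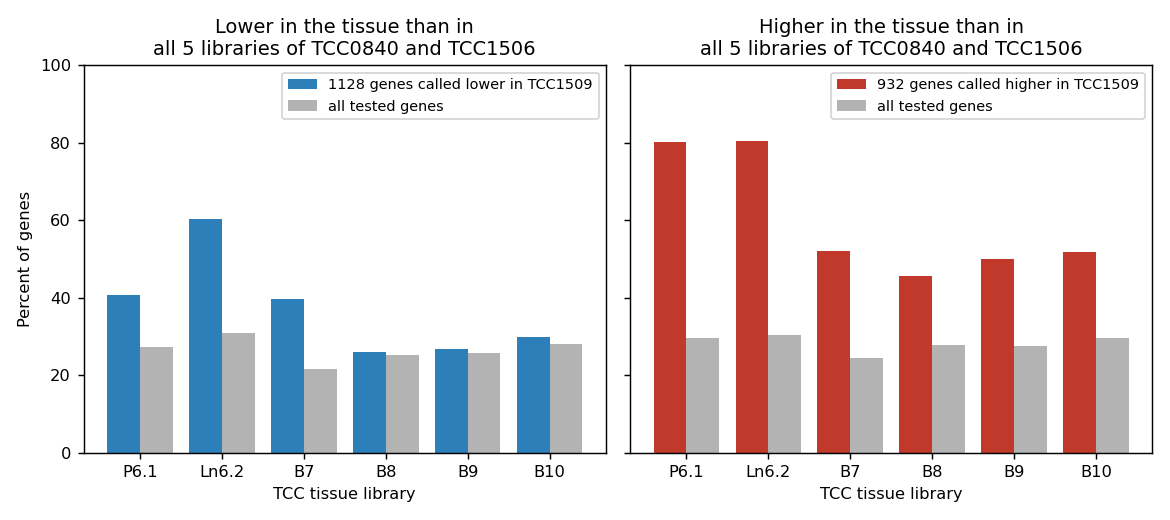
Percent of genes that were lower (left) or higher (right) in a TCC tissue than in all 5 libraries of TCC0840 and TCC1506, for the genes called in TCC1509 (colored) and for all tested genes (gray). For the higher genes, P6.1 and Ln6.2 of the dog that gave TCC1509 reach 80.2% and 80.4%, and the tissues of 4 other dogs 45.5% to 52.0%. The same 5 libraries gave the calls, which partly sets the difference between colored and gray bars.

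The number of calls depended on what served as the unit. With the line as the unit, 1 value of TCC1509 against 1 of each other line, edgeR called 0 genes, although 1003 had an unadjusted p under 0.05. The calls thus describe these cultures and not TCC in general. With the series of sample numbers as a term, which is estimated from the libraries of TCC1506 alone, 751 lower and 269 higher genes were called, 709 and 256 of them among those reported. Within that series, 1060 of the 1128 lower and 888 of the 932 higher genes differed at least 2-fold in the same direction between the mean of TCC1509 and replicate 3 of TCC1506. The genes were called at this fold change with these same libraries among others, so most of this agreement was set by the calling. The same share over all tested genes was not computed.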

How the data were processed

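RNA sequencing data of 3 TCC cell lines and the tissues of the series were used. Per the labels and the study's methods, the authors used Trimmomatic for trimming, STAR for alignment to CanFam3.1 and RSEM for quantification of Ensembl genes, and they deposited expected counts, not normalized, in 1 table per lane. Strandedness is not given in the sources used here, so antisense or overlapping genes may share reads. Here, the 4 lanes of a library were summed and rounded to whole numbers (17.4% of the deposited values above 0 were not whole). Groups, passages and dogs were taken from the labels and the study's methods.

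Libraries were tested in 1 model with 1 coefficient per line in edgeR 4.0.16 (TMM, quasi-likelihood F test, Benjamini-Hochberg over all tested genes) in R 4.3.3. The standard error of a log2 fold change was computed from it and its F statistic. The thresholds follow the study, which used DESeq2 on pooled libraries. DESeq2 1.42.0, other normalizations, filters and thresholds, each library left out, a replicate block and the series of sample numbers were alternatives. That series is a reading of the labels, in which sample numbers recur, and its nature is not given. CPM used TMM factors over the 10 libraries of the TCC lines, P6.1 and Ln6.2, or over all 31 where stated. Folds against groups at 0 are bounds from 3 counts over the group, and ratios with 1 to 3 counts have exact 95% intervals. Both cover counting error only. The shallowest TCC line library held 15848441 expected counts, and no libraries agreed within counting noise. In simulated data of this comparison, 13013 and 13014 genes were tested. Of genes changed 4-fold 96% were recovered, and of those changed 2-fold 3%, with 0 false calls. Only 200 genes were changed there, and TCC0840 and TCC1506 did not differ from each other. The data differ in both respects, so these rates need not hold for them, and genes near the 2-fold threshold can be missed. Tables and figures were made in Python 3.11.15 (numpy 2.4.6, pandas 2.3.3, matplotlib 3.10.9).

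Symbols came from supplementary gene tables and figure legends of the study. Genes were named by rule. Of the junction, keratin, epithelial, urothelial and mesenchymal lists, at most 6 called members each were taken, plus CLDN7, EPCAM and TP63 as the paired ones of a fixed set. Of the other lists at most 3 called members were taken. To these were added the 12 called genes with a symbol that changed most in each direction, and the 5 in each direction on the same side in both tissues, ranked by the smaller of the changes. OVOL2, CDH3, ITGA6 and other members of lists or families were added after their values were seen. The families of collagens, laminins, integrins, lysyl oxidases and interleukins were defined by symbol stem. The members and lists were chosen with earlier results of these data known. The authors' own comparisons and drug response data were not used. Some genes that the rule names are not reported here.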

Additional observations from a re-analysis of the deposited data

How the results depend on the processing

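The sample numbers in the labels and the unit of the test had the most effect on the calls. Among the genes reported as lower and higher, DESeq2 called 98.9% and 95.9% too, and its totals were 1218 and 980. With the series of sample numbers as a covariate, the totals fell to 751 lower and 269 higher, and 18 of the 45 named genes lost their call. Of the reported genes, all 1128 lower and 928 of the 932 higher genes kept their direction. Within that series, TCC1509 against replicate 3 of TCC1506 alone gave 2065 lower genes, where no second line has to differ, and CDKN1A, COL3A1 and RAC2 lost their call while TP63 gained one. With lines as units 0 lower and 0 higher genes were called by edgeR, 612 and 391 had an unadjusted p under 0.05, and the smallest adjusted p was 0.415. A 4-fold threshold left 435 higher genes, and genes with a symbol alone gave 105 lower and 82 higher. Leaving out 1 library at a time gave 895 to 1150 lower and 680 to 951 higher genes. Without TMM factors, or with the size factors of DESeq2, no named gene changed its call.

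The libraries share replicate numbers across lines, and the correlations of same-numbered libraries ranged from -0.18 to 0.15. Between TCC1506 and TCC1509 they were 0.145, 0.072 and 0.089, above every other-numbered pair of these lines (-0.107 to 0.040). The negative values involve TCC0840, whose libraries deviate from their mean in mirrored ways, so its correlations come with opposite signs. A pairing by number was thus weak at most and was not settled. With the replicate block, 1021 lower and 806 higher genes were called, and CCND1 was the named gene that lost its call. Not every library correlated best with its own number.

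A count of 0 in TCC1509 allows up to 3 counts over the group. With 2 or 3 cultures per line, genes changed near 2-fold can be missed.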

Other observations

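Several genes with a symbol separated 1 of the other TCC lines from TCC1509 and from the remaining line, and were therefore not called. PGR, the progesterone receptor, was at 12.3, 15.3 and 16.5 CPM in TCC1506 and had no count in any library of TCC1509 or TCC0840. COL5A3, a chain of type V collagen, was at 32.6, 7.5 and 4.57 CPM in TCC1506, with no count in TCC1509 and 1 count in TCC0840. ITGB2, the beta chain of leukocyte integrins, was at 6.27 and 24.1 CPM in TCC0840, 0.111, 0 and 0.0536 CPM in TCC1509 and 0, 0.0591 and 0.0531 CPM in TCC1506. LEF1, a transcription factor of the Wnt pathway, was at 2.74 and 6.05 CPM in TCC0840 and at most 0.177 CPM in every library of the other lines. TCC1509 thus shared the near absence of PGR and COL5A3 with TCC0840, and that of ITGB2 and LEF1 with TCC1506.

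Among the lysyl oxidases, which cross-link collagens, the 5 tested genes were not called. LOX was at 4.81, 2.67 and 5.2 CPM in TCC1509, between 0.0608 and 0 CPM in TCC0840 and 15.6, 119 and 104 CPM in TCC1506. Of 9 interleukins and their receptors, 5 were tested, IL2RG was higher and IL22RA1, a receptor chain of epithelial cells, lower, at 0, 0.0581 and 0 CPM in TCC1509, 1.76 and 3.93 CPM in TCC0840 and 30.5, 18.3 and 24.6 CPM in TCC1506. Some genes differed between the passages of TCC1509. IL20RB was at 9.13 CPM at passage 77 and at 0.407 and 0.429 CPM at passage 85, and LOXL4 was at 35.4 CPM compared with 4.70 and 8.90 CPM. Passage 77 is represented by 1 library, so passage and culture cannot be told apart.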
